A study of Arabidopsis thaliana with 6 samples.

Results

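The Arabidopsis miRNAs miR158, miR161 and miR400 (ath-miR158, ath-miR161 and ath-miR400 in the table) were examined in small RNA libraries of rosette leaves. The members were every mature sequence of the deposited table named miR158, miR161 or miR400, which gave 6 of 349 sequences in 3 families: miR158a-3p, miR158a-5p, miR158b, miR161.1, miR161.2 and miR400. The 3 genotypes were compared at an age of 3 weeks, all in soil, without any treatment and in the Col-0 background, with 2 biological replicates each. WT was Col-0 itself. The hyl1-2 single mutant carries a mutation in HYL1, a double-stranded RNA-binding partner of the Dicer enzyme DCL1. The snrk2.2/3/6 triple mutant lacks SnRK2.2, SnRK2.3 and SnRK2.6, the SNF1-related kinases activated most strongly by abscisic acid. The study describes smaller leaves in this mutant than in WT. In whole rosettes, fewer cells that make a miRNA and less of it per cell cannot be told apart.

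In plants a miRNA is cut from a hairpin precursor by DCL1 with HYL1 and SERRATE, loaded into an ARGONAUTE protein and guided by nearly full pairing to its target mRNA, which is then cut. The best known targets of miR161 and miR400 in Arabidopsis encode pentatricopeptide repeat (PPR) proteins, and miR158 has been linked to PPR transcripts as well. PPR proteins form a very large plant family of RNA-binding proteins that enter mitochondria or chloroplasts and act there in the cutting, editing, splicing and stability of organelle RNA. Transcripts of 1 clade of PPR genes are also known as a source of secondary siRNAs, made after miRNA-guided or siRNA-guided cutting.

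The mature sequences are printed 5′ to 3′ as DNA letters to show which of them share bases, with the seed, bases 2 to 8, in capitals.
miR158a-3p: tCCCAAATgtagacaaagca
miR158b: cCCCAAATgtagacaaagca
miR158a-5p: cTTTGTCTacaattttggaaa
miR161.1: tGAAAGTGactacatcggggt
miR161.2: tCAATGCAttgaaagtgacta
miR400: tATGAGAGtattataagtcac
The miR158a-3p and miR158b sequences were 20 nt long, and the other 4 were 21 nt long. miR158a-3p and miR158b shared the seed CCCAAAT and differed by the substitution T1C, counted from the 5′ end of miR158a-3p. The other 4 sequences each had a seed of their own. The table counts reads identical to a sequence, so a miR158a-3p read that lost its first base would count for neither.

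The 6 sequences came from 4 precursor genes, located by exact matching to the TAIR10.1 assembly with its RefSeq annotation. miR158a-3p (chr3:3366349-3366368, minus strand) and miR158a-5p (chr3:3366391-3366411, minus strand) are the opposite strands of the MIR158a hairpin (AT3G10745). miR158b (chr1:20772273-20772292, plus strand) lies in MIR158b (AT1G55591). Both hairpins are shown because they differ in length and in the strands that the table holds, with the mature sequences in capitals.
MIR158a: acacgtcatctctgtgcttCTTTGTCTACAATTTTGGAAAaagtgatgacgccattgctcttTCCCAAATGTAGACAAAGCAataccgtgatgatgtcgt
MIR158b: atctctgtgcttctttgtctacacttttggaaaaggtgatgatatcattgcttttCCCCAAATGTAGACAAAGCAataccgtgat
The annotated MIR158a precursor had 100 nt and that of MIR158b had 85 nt.

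miR161.1 (chr1:17825731-17825751, plus strand) and miR161.2 (chr1:17825722-17825742, plus strand) overlap on the same arm of MIR161 (AT1G48267), with starts 9 bases apart. The stretch that holds both is shown with their 12 shared bases in capitals, miR161.2 being its first 21 bases and miR161.1 its last 21.
MIR161, chr1:17825722-17825751: tcaatgcatTGAAAGTGACTAcatcggggt
A single precursor molecule can therefore give only 1 of the 2 as an intact sequence. miR400 (chr1:11785947-11785967, plus strand) lies in MIR400 (AT1G32582), inside an intron of AT1G32583, a gene for a tapetum determinant protein on the same strand. The 21 bases of miR400 also matched chr1:2014950-2014970 on the plus strand, opposite a coding exon of the PPR gene AT1G06580, so reads from the 2 places cannot be told apart.

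Complementary sites in annotated transcripts set miR161.1, miR161.2 and miR400 apart from miR158 in the share of PPR genes. Each sequence was compared without gaps with every annotated mRNA, a mismatch scoring 1 and a G:U pair 0.5, both doubled at miRNA positions 2 to 13, and a gene was counted at a score of at most 4. Of the genes found for miR400, 17 of 24 (70.8%) were annotated as PPR, as were 13 of 24 (54.2%) for miR161.2 and 6 of 13 (46.2%) for miR161.1. Among all 31464 genes with an mRNA, 262 (0.833%) carried that annotation.

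The miR158 sequences had fewer PPR genes among their sites. There were 2 of 11 (18.2%) for miR158a-3p, 1 of 5 (20%) for miR158b and 0 of 7 for miR158a-5p, the strand opposite the abundant one. The shares of miR158a-3p and miR158b were above the 0.833% of all genes but rested on only 2 genes and 1 gene. The other genes of miR158a-3p included the fucosyltransferase genes FUT2 and FT1 and the acyltransferase gene AT5MAT. RefSeq names many related genes as tetratricopeptide (TPR)-like, a helical repeat of similar fold. When these were added, a choice made after seeing the annotation, the shares were 22 of 24 for miR400, 20 of 24 for miR161.2, 12 of 13 for miR161.1 and 3 of 11 for miR158a-3p, beside 1.79% of all genes. Of the other 343 sequences in the table, 103 had sites in at least 5 genes, and 98 of these had 0 PPR genes. No such sequence reached 40% PPR genes, and the 2 with at least 10% were miR5650 (1 of 7) and miR866-3p (2 of 17). A site is a match of letters, and cutting of these transcripts was not measured here.

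**Figure D1:**
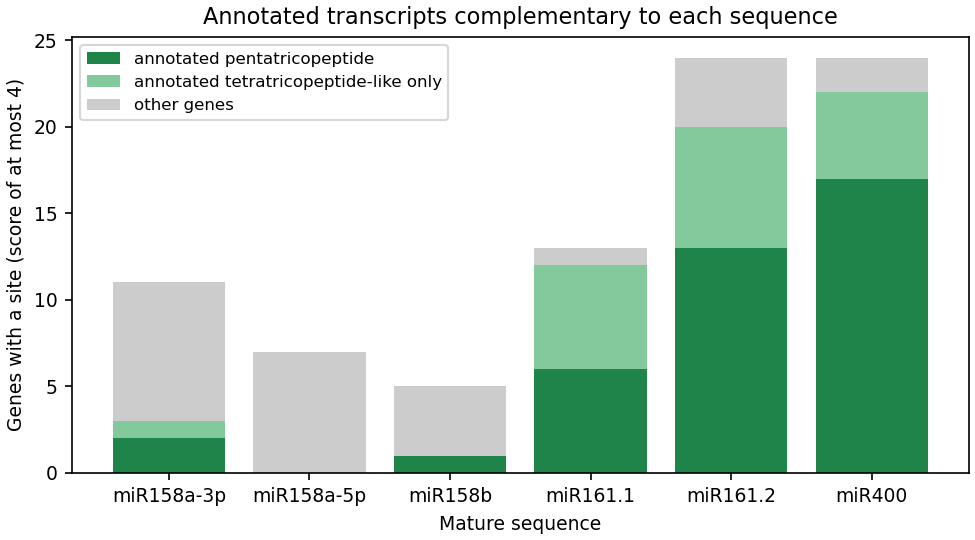
Number of annotated genes with a complementary site (score of at most 4) for each of the 6 mature sequences, with bar segments for genes annotated as PPR, as TPR-like and as neither. PPR and TPR-like genes fill most of the bars of miR161.1, miR161.2 and miR400, while miR158a-5p has 0 of 7.

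The genes of miR161 and miR400 overlapped. All 13 genes with a miR161.1 site also had a miR161.2 site, 13 of the 24 genes of miR161.2, and in 11 of them the sites lay 9 bases apart, as the 2 miRNAs do in their precursor. Sites for miR400 were found in 14 genes that had a miR161 site, and 9 genes had sites for all 3. Together the 3 sequences had 34 genes, of which 17 lay between positions 23000000 and 24000000 of chromosome 1, a stretch with 14 genes annotated as PPR. Of their 61 sites, 58 were in coding sequence.

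Example sites are printed with paired bases in capitals and mismatches or G:U pairs in lower case, to show how close the pairing was in each family. They were chosen after the scores were seen. The 2 miR400 sites and the miR158a-3p site had the lowest scores of those sequences, the miR161.2 site was 1 of 3 genes at its lowest score, RPF2 was 1 of 7 at the lowest score of miR161.1, and AT1G64100 was 1 of 5 at the lowest score of miR158b. The miR161.1 site in AT5G41170, which was not among its lowest, is shown because it overlaps the miR161.2 site.
miR400 in AT1G06580, chr1:2014950-2014970, minus strand, score 0: GTGACTTATAATACTCTCATA
miR400 in NG1 (AT1G62720), chr1:23228516-23228536, plus strand, score 1: GTGACTTATAATACTCTCATt
miR161.2 in AT5G41170, chr5:16479684-16479704, minus strand, score 1: TAaTCACTTTCAATGCATTGA
miR161.1 in AT5G41170, chr5:16479693-16479713, minus strand, score 3.5: AaCCtGATGTAaTCACTTTCA
miR161.1 in RPF2 (AT1G62670), chr1:23205678-23205698, minus strand, score 2.5: ACCCtGATGTAtTCACTTTCA
miR158a-3p in AT1G64100, chr1:23792061-23792080, plus strand, score 3: TtCTTTGTCTACATTTGGcA
miR158b in AT1G64100, the same site, score 4: TtCTTTGTCTACATTTGGca
AT1G06580, AT5G41170, NG1 and AT1G64100 are annotated as PPR genes, and RPF2, annotated as RNA processing factor 2, is known as a PPR protein that shapes the 5′ ends of mitochondrial transcripts. The terminal base that separates the 2 miR158 sequences was paired in miR158a-3p and unpaired in miR158b at the AT1G64100 site. The best site of miR400 was the sequence opposite its second genomic match. AT1G64100 also held a miR161.2 site with a score of 4, and it was the 1 gene with a site for both miR158a-3p and the other families.

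The libraries held 6670 to 34567 miRNA reads among 16041013 to 19601046 genome-matched reads. The 2 hyl1-2 libraries had the fewest miRNA reads, 7141 and 6670. The snrk2.2/3/6 libraries stood apart from each other, with 29014 reads in replicate 1 and 10386 in replicate 2, so each result on this mutant is given for both. Levels are in RPTM, the deposited reads per 10000000 genome-matched reads, and 3 reads, taken as the floor, were 1.53 to 1.87 RPTM. Intervals and floors cover counting error only. The labels and methods name biological replicates but not how many plants each library pooled.

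In WT, 2 members carried almost all reads of the 3 families. miR158a-3p was the third and the second most abundant of the 349 sequences in WT replicates 1 and 2, and miR161.1 ranked sixth in both. miR158a-3p gave 4824 and 4539 reads, or 14.0% and 14.9% of all miRNA reads. miR161.1 gave 2599 and 2437 reads, or 7.52% and 8.01%. All 6 members together held 21.9% and 23.4% of the miRNA reads in the WT libraries, 13.5% and 19.8% in those of hyl1-2, and 21.1% and 13.8% in those of snrk2.2/3/6. The order of mean WT levels was miR158a-3p (2868 ± 117 RPTM, SD, n = 2), miR161.1 (1542 ± 66.8), miR158a-5p (65.8 ± 2.02), miR158b (13.2 ± 0.404), miR161.2 (7.35 ± 0.850) and miR400 (2.45 ± 1.74). Neighbours in that order did not overlap between the 2 WT libraries. The WT libraries lay close together for every member except miR400, which had 2 and 6 reads.

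**Figure D2:**
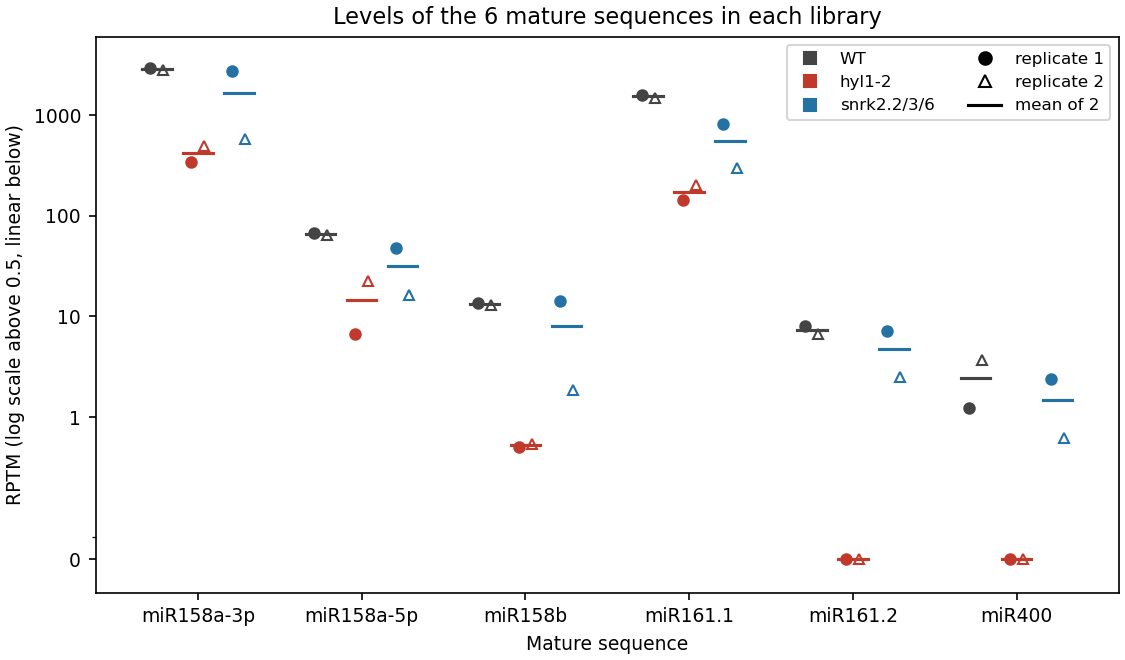
Level of each of the 6 mature sequences in each of the 6 libraries, in RPTM on an axis that is logarithmic above 0.5 and linear below, with 1 point per library coloured by genotype. The hyl1-2 points lie below the WT points for every member, and the 2 snrk2.2/3/6 points are far apart for miR158a-3p, at 2731 and 579.8 RPTM.

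Levels of miR158 were lower in hyl1-2 than in WT. miR158a-3p, the main strand, was at 2950.4 and 2785 RPTM in WT and at 342 and 491 RPTM in hyl1-2. The hyl1-2 mean of 416 ± 106 RPTM was 14.5% of the WT mean, and the genotypes did not overlap. In edgeR's quasi-likelihood test the log2 fold change was -2.78 with a Benjamini-Hochberg adjusted p of 0.000663. Its standard error, derived from the F statistic like the others given with edgeR values, was 0.72. miR158a-5p was at 67.3 and 64.4 RPTM in WT and at 6.63 and 22.3 RPTM in hyl1-2, where the 2 libraries differed by more than those of WT. Its log2 fold change was -2.19 with a standard error of 0.94 and an edgeR adjusted p of 0.0319. miR158b fell to a single read in each hyl1-2 library, from 22 and 21 reads in WT. The pooled WT rate was 25.0 times the hyl1-2 rate, with a counting interval of 6.52 to 213, and edgeR gave an adjusted p of 0.00294. Both hyl1-2 libraries were under the floor, so its fitted log2 fold change depended on the method, at -4.47 in edgeR and -3.21 in limma on log2(RPTM + 1).

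miR161.1, which guides the cutting of PPR transcripts, was at 1589.6 and 1495 RPTM in WT and at 144 and 203 RPTM in hyl1-2. The hyl1-2 mean of 174 ± 41.6 RPTM was 11.3% of the WT mean. Its log2 fold change was -3.15 with a standard error of 0.83 and an edgeR adjusted p of 0.000747. miR161.2 and miR400 had 0 reads in both hyl1-2 libraries. For miR161.2, with 13 and 11 reads in WT, the WT level was at least 4.65-fold higher than that of hyl1-2, computed against the floor of 3 reads per library. For miR400, with 2 and 6 reads in WT, it was at least 1.55-fold higher, a depth at which WT replicate 1 itself was under the floor. These 2 sequences had a mean of under 10 reads over the 6 libraries and were not tested.

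All 4 members that were tested were lower in hyl1-2, where 67.8% of the 59 tested sequences were lower and 1.69% higher by the same test, and both hyl1-2 libraries were below both WT libraries for all 6 members and for 88.1% of the tested sequences. The median log2 fold change of the 59 sequences was -2.62, and relative to it the members were at -0.16 (miR158a-3p), 0.44 (miR158a-5p), -1.84 (miR158b) and -0.52 (miR161.1). In limma on log2(RPTM + 1), miR158b and miR161.1 lay about equally far from the median, at -0.78 and -0.73. With no filter on low counts the fold changes were the same but 0 of the 4 passed, with edgeR adjusted p of 0.07 to 0.151. Under the 3 scalings that set the typical miRNA or the miRNA total as equal, 0 of the 4 passed, and miR158a-5p turned to the opposite sign, at 0.26 to 0.41. Without hyl1-2 replicate 1 only miR158b of the 4 passed, and without either WT library only miR158a-3p and miR161.1 did.

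**Figure D3:**
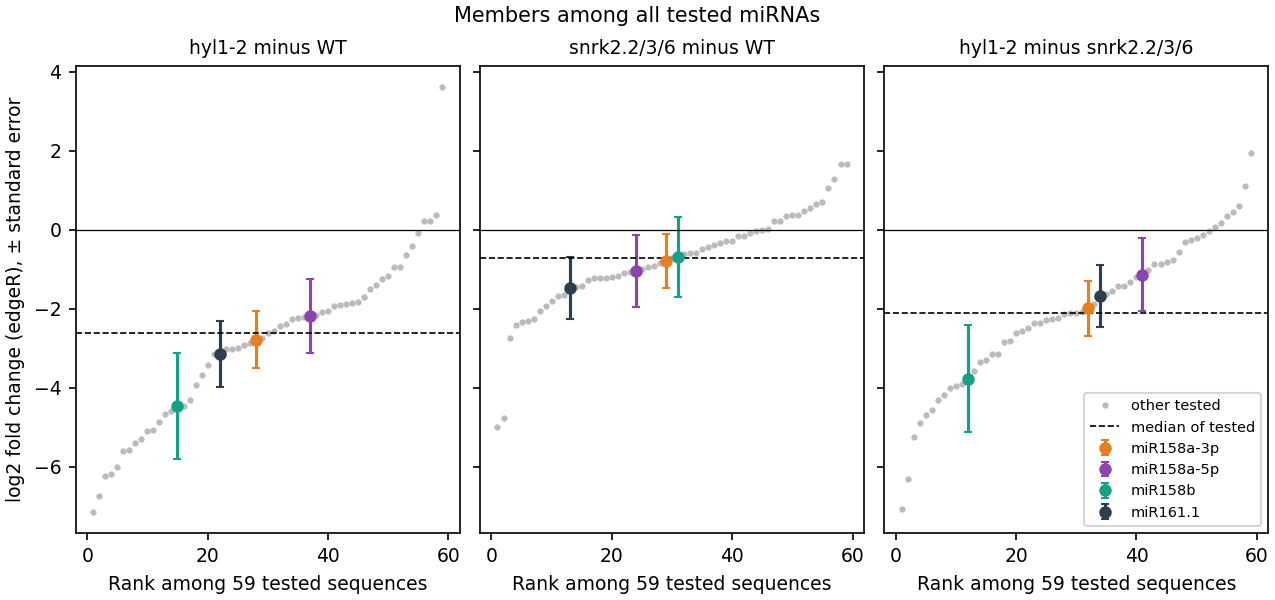
Log2 fold changes from edgeR for the 59 tested sequences, ranked from lowest to highest in each of the 3 comparisons, with the 4 tested members coloured and with standard errors and the median of all tested sequences as a dashed line. In hyl1-2 against WT the median is -2.62 and miR158b, with 1 read in each hyl1-2 library, is at -4.47.

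In snrk2.2/3/6 the 2 libraries disagreed on miR158. miR158a-3p was at 2731 RPTM in replicate 1 and 579.8 RPTM in replicate 2, against 2950.4 and 2785 RPTM in WT. Both values were below both WT values, but replicate 1 was close to WT and the mean of 1656 ± 1521 RPTM had an SD nearly as large as itself. miR158a-5p was at 47.4 and 16.2 RPTM, also below both WT libraries. miR158b was at 14.2 RPTM in replicate 1, above both WT libraries, and at 1.87 RPTM, or 3 reads, in replicate 2. The group means of these 3 sequences were 57.7%, 48.3% and 61.0% of the WT means.

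miR161.1 was below WT in both snrk2.2/3/6 libraries. It was at 816 and 295 RPTM, against 1589.6 and 1495 RPTM in WT, and the higher library was 2.77 times the lower, beside 2.92 times for miR158a-5p and 4.71 times for miR158a-3p. The mean of 555 ± 368 RPTM was 36.0% of the WT mean. In edgeR's quasi-likelihood test the log2 fold change was -1.47 with a standard error of 0.78, an unadjusted p of 0.0604 and an adjusted p of 0.324. miR161.2 had 12 and 4 reads and overlapped WT, which was 1.51 times as high by pooled rates with a counting interval of 0.771 to 3.05. miR400 had 4 and 1 reads and overlapped WT as well, with a ratio of 1.61 and an interval of 0.465 to 6.27, so no difference was detectable at this depth.

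None of the 4 tested members passed the edgeR test in snrk2.2/3/6 (0 of 4 at an adjusted p under 0.05 and 0 of 4 at an unadjusted p under 0.05), where 3.39% of the 59 tested sequences were lower. DESeq2 with genome-matched totals and limma also gave 0 of 4 at an adjusted p under 0.05. At an unadjusted p under 0.05 each gave 1 of 4, miR161.1. The share over all tested sequences at that level was not counted for these 2 tools. The adjusted edgeR values of the miR158 sequences were 0.489 for both strands of miR158a and 0.760 for miR158b. Both libraries were below both WT libraries for miR158a-3p, miR158a-5p and miR161.1, as for 52.5% of the tested sequences. The median log2 fold change of all tested sequences was -0.72, and relative to it miR161.1 was at -0.75 and the miR158 sequences between -0.32 and 0.02. The result rested on replicate 1. Without it miR158a-3p was at -2.31, miR158b at -2.77 and miR161.1 at -2.39, while the median of all tested sequences moved to -1.75. Relative to that median these members were at -0.56, -1.02 and -0.64, and miR158a-5p, at -2.02, was at -0.27. Without replicate 2 the median was -0.22 and miR158b was at 0.11, on the other side of 0.

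The mutants were also compared with each other, which tests whether their differences from the shared WT libraries were unequal. Both hyl1-2 libraries were below both snrk2.2/3/6 libraries for every member except miR158a-5p, and for 66.1% of the tested sequences. By edgeR 2 of the 4 tested members were lower in hyl1-2, miR158a-3p at -1.99 (standard error 0.70, adjusted p = 0.0162) and miR158b at -3.77 (1.37, 0.0189), as were 45.8% of the tested sequences. miR161.1 was at -1.68 with an adjusted p of 0.0636, and miR158a-5p at -1.14 with an adjusted p of 0.311. miR161.2, with 12 and 4 reads in snrk2.2/3/6, was at least 3.04-fold higher there than in hyl1-2, computed against the same floor. Relative to the median of -2.10 the values were 0.11 for miR158a-3p, -1.67 for miR158b, 0.42 for miR161.1 and 0.96 for miR158a-5p. Leaving out WT replicate 1, WT replicate 2, either hyl1-2 library or snrk2.2/3/6 replicate 1 left 0 of 4 lower, and leaving out snrk2.2/3/6 replicate 2 left 3. Fitting only the 2 genotypes or using no filter on low counts also left 0 of 4, and limma left the same 2, at adjusted p of 0.04998 (miR158a-3p) and 0.0405 (miR158b).

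The scalings shifted all tested sequences by nearly the same amount, so they moved the members together. Against WT in hyl1-2, miR158b was at -4.47 by genome-matched totals, -1.90 with TMM factors, -2.15 by total miRNA counts and -2.07 with DESeq2's size factors, below 0 in each. miR161.1 was at -3.15, -0.45, -0.70 and -0.58 in the same order. In snrk2.2/3/6 miR161.1 was at -1.47, -0.66, -0.74 and -0.63, and no tested member changed sign there. Between the mutants miR161.1 and miR158a-5p changed sign under the 3 other scalings and miR158a-3p under TMM. None of the 4 passed an adjusted p of 0.05 under those 3 scalings in any comparison.

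**Figure D4:**
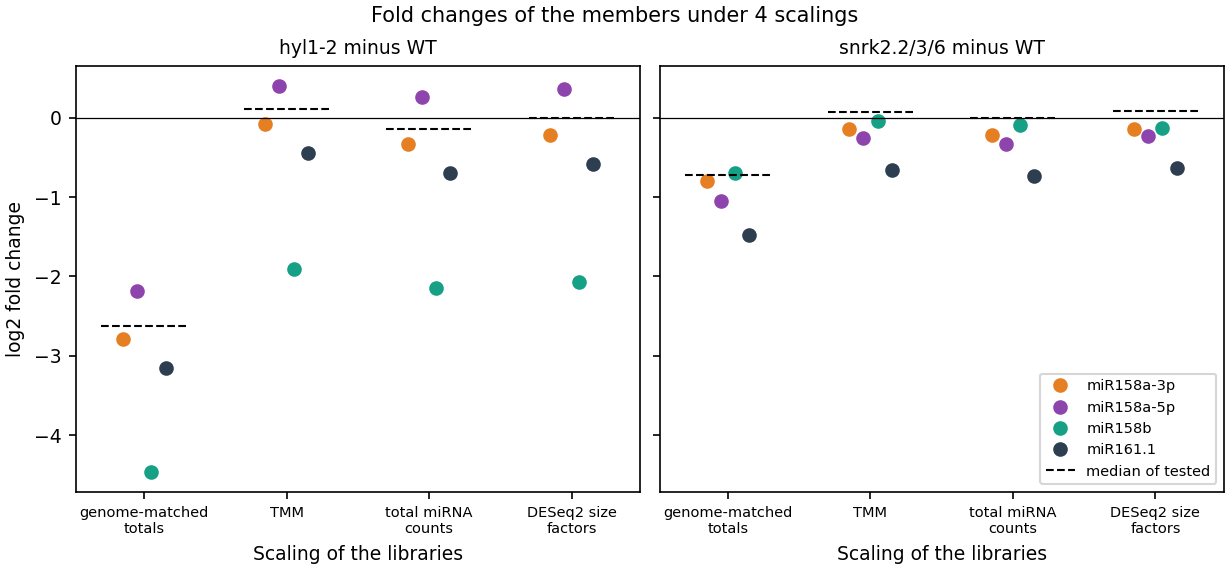
Log2 fold changes of the 4 tested members under 4 scalings of the libraries (genome-matched totals, TMM, total miRNA reads, DESeq2 size factors). There is 1 panel for each mutant against WT, and the comparison between the mutants is not drawn. In hyl1-2 against WT all 4 members are below -2 by genome-matched totals, and miR158a-5p is above 0 under the 3 others.

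The share of a library's miRNA reads does not use the genome-matched total. The share of miR161.1 was 7.52% and 8.01% in WT, against 3.96% and 5.61% for hyl1-2 and 4.75% and 4.55% for snrk2.2/3/6, so all 4 mutant libraries were below both WT libraries. It was the 1 tested member of which this held, and it held of 23.7% of the 59 tested sequences. The share of miR158a-3p was 14.0% and 14.9% in WT, against 9.38% and 13.6% for hyl1-2 and 15.9% and 8.95% for snrk2.2/3/6. Both hyl1-2 libraries were below WT, as for 40.7% of the tested sequences, whereas the snrk2.2/3/6 libraries lay on either side of it. In snrk2.2/3/6 replicate 1 miR158a-3p ranked first of all sequences.

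**Figure D5:**
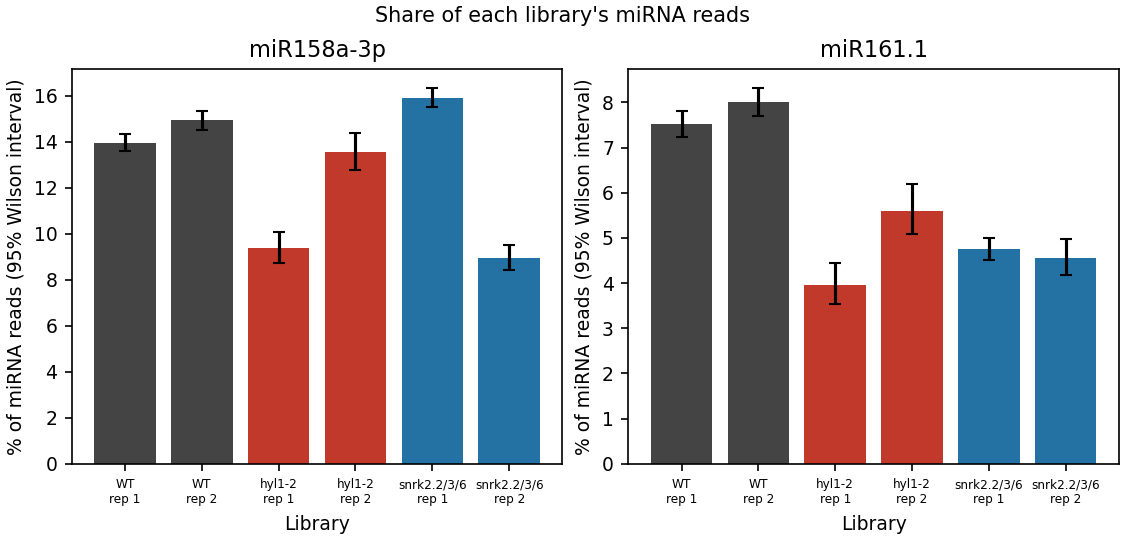
Percent of all miRNA reads of each library that were miR158a-3p or miR161.1, with 95% Wilson intervals for counting error. For miR161.1 the 4 mutant libraries lie between 3.96% and 5.61%, below the WT libraries at 7.52% and 8.01%.

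Ratios between sequences of 1 precursor do not depend on library size. Of the reads of both miR158a strands, the 3p strand made up 97.8% and 97.7% for WT, 98.1% and 95.7% for hyl1-2 and 98.3% and 97.3% for snrk2.2/3/6. The genotypes overlapped in all 3 comparisons, with exact two-sided permutation p of 1, 1 and 0.667, where 2 libraries against 2 cannot go below 0.333. Of the reads of miR161.1 and miR161.2, miR161.1 made up 99.5% and 99.6% in WT and 99.1% and 99.2% in snrk2.2/3/6. In hyl1-2 it made up all 283 and 374 reads, which allows a miR161.2 share of up to 1.06% and 0.802%. The WT miR161.2 share lies within those limits, so a difference was not detectable at this depth. The exact permutation p was 0.333 in each of the 3 comparisons of this share, the smallest possible.

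The sequences whose pattern over the 6 libraries was nearest to each family's most abundant member were found by the distance between log2(RPTM + 1) profiles set to the WT mean, among 55 other tested sequences. For miR158a-3p these were miR157c-3p (distance 0.684), the sequence shared by miR157a-5p, miR157b-5p and miR157c-5p (0.745) and miR403-3p (0.753), where the median distance was 2.67. For miR161.1 they were the miR157a-5p sequence (0.909), miR157c-3p (0.969) and miR159b-3p (1.13), with a median of 2.79. The distance between miR158a-3p and miR161.1 was 0.992. The profile of miR157c-3p rests on low levels, at 1.02 and 2.17 RPTM in the hyl1-2 libraries. The miR157a-5p sequence acts on SPL transcription factor transcripts, miR159 on those of MYB factors and miR403 on AGO2. For miR400 the nearest were miR166e-5p (0.964), miR403-5p (1.24) and the sequence of miR398b-3p and miR398c-3p (1.29), with a median of 2.50, in a profile that rests on at most 6 reads a library.

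PPR transcripts are also reached by secondary siRNAs from TAS1 and TAS2 transcripts, which miR173 triggers. A list of 15 sequences of miRNAs known to start secondary siRNAs or to act in that pathway (miR173, miR390, miR393, miR168, miR472, miR825 and miR828) had 14 with a read and 6 that were tested. Of the 6, 2 were lower in hyl1-2 than in WT, 0 were lower in snrk2.2/3/6 and 0 were higher in either, beside 67.8% and 3.39% lower among all tested sequences. miR173-5p gave 22 and 30 reads in WT, only 1 and 0 reads in hyl1-2, and 35 and 7 reads in the snrk2.2/3/6 libraries. The hyl1-2 libraries were at or under the floor, and edgeR gave an adjusted p of 0.000343 against WT and 0.0021 against snrk2.2/3/6. The other called sequence was miR825, with an adjusted p of 0.000561 in hyl1-2. The median log2 fold change of the 6 was -1.54 in hyl1-2 and -0.71 in snrk2.2/3/6, beside -2.62 and -0.72 over all tested sequences. The list was made by miRNA name and took either strand, so it is not limited to strands that start siRNAs. The 6 were miR173-5p, miR825, the miR390a-5p sequence, miR393b-3p and both strands of miR168a. In hyl1-2 they ran from -5.58 (miR173-5p) to 0.22 (miR393b-3p), so their median describes no single trigger.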

How the data were processed

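Total RNA of rosette leaves was sequenced on an Illumina HiSeq instrument. A value in the authors' table is the number of adaptor-free reads that match a mature sequence of miRBase release 21 exactly, out of a pool limited to 18 to 30 nt and to the TAIR10 genome. The mapping tool is not given in the sources used here. The deposited counts are whole reads without normalization, and the deposited RPTM signal is the count per 10000000 genome-matched reads, from which the totals were computed.

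The main test was the quasi-likelihood F test of edgeR 4.0.16 (glmQLFit, glmQLFTest) in R 4.3.3. It used all 6 libraries, a single genotype factor, and library sizes set to the genome-matched totals without TMM. Adjusted p values (Benjamini-Hochberg) cover the 59 sequences whose mean was at least 10 reads. The biological coefficient of variation was 50.0%, and the script was tested on simulated data with less spread than these (dispersion 0.1). Each library counted as 1 replicate, since the methods describe biological replicates and no library repeated another (chi-square of 11.1 to 22.2 per degree of freedom). Alternatives were other scalings, DESeq2 1.42.0, limma 3.58.1 on log2(RPTM + 1), other filters, omission of each library and a block for the replicate number. Added after seeing the data were a crossed block, the TPR annotation and a site score of at most 3. Sites were searched, and shares and distances computed, in Python 3.11.15 with numpy 2.4.6, pandas 2.3.3 and scipy 1.17.1. Figures used matplotlib 3.10.9. Every member was named, with the 3 nearest sequences of each family's most abundant member, values of miR173-5p and, chosen after its values were seen, miR825. The members and lists were chosen with earlier results of these data known.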

Additional observations from a re-analysis of the deposited data

Results flagged for a closer look

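For 2 members the difference from WT was not equal in the mutants by edgeR's test of hyl1-2 against snrk2.2/3/6. By the same test 45.8% of the 59 tested sequences were lower in hyl1-2. Relative to the median of -2.10 over all tested sequences, miR158a-3p was at 0.11 and miR158b at -1.67. miR158a-3p was lower in hyl1-2 by a log2 fold change of -1.99, with 670 and 904 reads in hyl1-2 and 4614 and 930 reads in snrk2.2/3/6. miR158b was lower by a log2 fold change of -3.77, with 1 and 1 reads against 24 and 3. In both cases snrk2.2/3/6 replicate 2 was the library nearer to hyl1-2, and without snrk2.2/3/6 replicate 1 the values were -0.48 and -1.70 and neither passed. Neither passed with a fit of only the 2 genotypes or with no filter on low counts. The same held with TMM factors, total miRNA counts and DESeq2's own size factors. Replicate 1 of snrk2.2/3/6 held 29014 miRNA reads and replicate 2 held 10386, and the part of this gap in these differences was not tested.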

How the results depend on the processing

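In hyl1-2 against WT the 4 members lower became 0 with TMM factors, total miRNA counts, DESeq2's own size factors or no filter on low counts (174 sequences tested), and 1 to 4 when a library was left out. At an unadjusted p under 0.05 the main test had all 4 members and 44 of the 59 tested sequences lower. The 4 settings just named gave 1, 2, 0 and 3 members at that level, where all tested sequences were not counted. miR158a-5p turned to 0.41, 0.26 and 0.36 under the first 3 of them. In snrk2.2/3/6 against WT the count of 0 changed only without snrk2.2/3/6 replicate 1, where the median of all tested sequences was -1.75. When a library was left out, miR158b ranged from -2.77 to 0.11. In hyl1-2 against snrk2.2/3/6 the 2 members lower became 0 with TMM, total miRNA counts, DESeq2's own size factors, no filter or only the 2 genotypes compared, and 0 to 3 when a library was left out. There miR158a-3p was at 0.061 with TMM, miR158a-5p at 0.66, 0.58 and 0.60 and miR161.1 at 0.21, 0.040 and 0.052 under TMM, total miRNA counts and DESeq2's own size factors. Same-numbered libraries of WT and hyl1-2 deviated together (r = 0.29 across 59 sequences, which are not independent replicates), while those of WT and snrk2.2/3/6 (-0.30) and of the mutants (-0.18) deviated in opposite directions. The labels do not say what a number marks, and the numbers were not used as pairs. With the replicate number as a block the counts were 4, 0 and 1, and with the snrk2.2/3/6 numbers crossed, chosen after seeing the data, 4, 0 and 0. With a mean of at least 5 reads miR161.2 was tested, with an edgeR adjusted p of 0.00742 in hyl1-2 and 0.872 in snrk2.2/3/6 against WT, and of 0.07 and 0.64 with no filter. Over the single members, 84 results under the other alternatives kept direction and side of the threshold. Another 25 kept direction but no longer passed, 1 newly passed and 10 changed sign. Some of those 10 had passed in the main test and no longer did, miR158a-5p in hyl1-2 against WT and miR158a-3p between the mutants. At a site score of at most 3 the PPR genes were 9 of 14 for miR400, 8 of 13 for miR161.2, 3 of 7 for miR161.1 and 1 of 1 for miR158a-3p. Depth limits miR158b, miR161.2 and miR400, at 0 to 24 reads a library, and 2 libraries a genotype limit every test.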

Other observations

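Ratios between the members, chosen after their values were seen, did not depend on library size. Of the reads of miR158a-3p and miR161.1 together, miR158a-3p made up 65.0% and 65.1% for WT and 70.3% and 70.7% for hyl1-2. It made up 77.0% and 66.3% for snrk2.2/3/6, so the 4 mutant libraries were above both WT libraries. The Wilson interval of snrk2.2/3/6 replicate 2, 63.8% to 68.7%, held both WT values, while those of the other mutant libraries did not. How often other pairs of sequences gave such an order was not counted. The exact permutation p was 0.333 for each mutant against WT, the smallest that 2 libraries against 2 can give. Of the reads of miR158a-3p and miR158b together, miR158b made up 0.454% and 0.461% for WT, 0.149% and 0.110% for hyl1-2 and 0.518% and 0.322% for snrk2.2/3/6. The Wilson intervals of the hyl1-2 libraries, 0.0263% to 0.839% and 0.0195% to 0.623%, held both WT values.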
